A study of Mus musculus with 9 samples.

Results

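The transcription factors described here, Tlx2, Phox2a, Hand2, Insm1, Isl1, Tbx3, Gata3 and Sox11, are known from neurons of the gut and of the wider autonomic nervous system. They were chosen by name, with earlier results of these data known, as were the gene lists used below. Counts within these lists, set beside the share over all probes, are therefore descriptions only. The members are all probes that carry one of these symbols in the platform annotation. This gave 10 probes of 7 of the 8 genes among 25697 probes on the array, namely 2 probes for Tlx2, 3 for Tbx3 and 1 each for Phox2a, Hand2, Insm1, Isl1 and Gata3, while Sox11 had no probe under its symbol and was not analysed here. RNA from 3 groups was hybridized to Illumina MouseRef-8 v2.0 bead arrays, with 3 arrays per group. All cells came from the small intestinal longitudinal muscle with myenteric plexus (LMMP) of FVB mice carrying hGFAP-eGFP, at postnatal day 7, and were sorted for green fluorescence that the human GFAP promoter drives, so the gate follows a transgene and not the GFAP protein. GFAP-glia in vivo went straight from the sorter into lysis buffer. Untreated gliospheres were grown from such cells for about 2 weeks with EGF and bFGF under low oxygen, and LPS-stimulated gliospheres additionally received lipopolysaccharide, a component of the bacterial outer membrane, at 100 µg/ml for 48 h. Each preparation pooled the pups of a litter and was split into an untreated and an LPS-stimulated dish. Gliosphere arrays of the same number were taken to share a preparation, which their labels do not state. Gliospheres are mixed cultures, in which the study found only part of the cells still fluorescent. In such bulk samples fewer cells of a type and less RNA per cell cannot be told apart.

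Enteric neurons and glia both descend from neural crest cells that colonize the gut. The neuronal branch is set up by a small group of DNA-binding proteins that act early in all autonomic neurons, such as the paired-like homeodomain protein Phox2a and the basic helix-loop-helix protein Hand2, and by others that act later or in neuron subtypes. Mice without Tlx2, a homeodomain protein also called Hox11L1, have an excess of enteric neurons and a form of megacolon. Many of these factors are also made outside the nervous system, for example Hand2 and Tbx3 in mesenchyme and Gata3 in T lymphocytes.

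The signal is the brightness of a probe in the deposited non-normalized table, after the decimal points lost from that table were put back, and a detection p-value of 0.05 or less marks a signal above the negative controls of that array. The normalized log2 signal is the same signal after background correction and variance stabilization (VSN) over the 9 arrays. Probes that were detected on none of the arrays or had no gene symbol were left out, which left 14794 probes of 10795 genes. Groups were compared in a limma fit of all 9 arrays, and the moderated p-values were adjusted over these probes by the Benjamini-Hochberg method. The levels of different probes were not compared with each other, since each probe binds with its own strength.

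The arrays differed in ways that touch all results below. Between 46.6 and 50.1% of the probes were detected per array. Replicates of the gliosphere groups correlated at 0.975 to 0.980 over the tested probes, whereas the in vivo arrays correlated at 0.898 to 0.962, and their median SD per probe was 0.56 log2 units against 0.26 and 0.23 in untreated and LPS-stimulated gliospheres. Gfap, the filament protein for which the cells are named, was detected on 3 of 3 arrays of each gliosphere group and on 0 of 3 in vivo arrays, where it was at least 9.69-fold lower than in untreated gliospheres (limma, adjusted p = 0.000163). The glial genes Sox10 and Erbb3 were not analysed here, as no probe carried these symbols.

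In the comparison of GFAP-glia in vivo with untreated gliospheres, which asks how cells taken from the plexus differ from cells expanded in culture, 4 of the 9 tested member probes were higher in vivo and 0 were lower. They belong to Phox2a, Tlx2 (both probes) and Isl1. Over all 14794 probes, 25% passed at an adjusted p under 0.05, with 11.9% higher in vivo and 13.1% lower. Against LPS-stimulated gliospheres the same 4 probes were higher in vivo and 0 were lower, where 28.4% of all probes passed (13.5% higher and 14.9% lower in vivo). Hand2, Insm1 and the 3 probes of Tbx3 did not pass, and Gata3 was detected on 0 of 9 arrays. Both Tlx2 probes and the Isl1 probe entered the test only through the in vivo arrays, the only ones on which they were detected, so a rise was the only direction open to them and the count of 4 carries no weight of its own. The Phox2a probe was detected on all 9 arrays.

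Phox2a, a homeodomain factor of noradrenergic and other autonomic neurons, had signals of 519.7, 523.9 and 760.6 on the untreated arrays and of 637.9, 856.0 and 689.7 on the LPS arrays. On the in vivo arrays its signals were 8352, 6383 and 3486. Every in vivo array was brighter than every gliosphere array, and the in vivo arrays, although their raw signals spread, lay within 0.29 log2 units of each other after normalization. The normalized log2 signal was 13.12 ± 0.15 in vivo (mean ± SD, n = 3), against 8.20 ± 0.34 in untreated and 9.01 ± 0.44 in LPS-stimulated gliospheres. Phox2a was thus higher in vivo by 4.92 log2 units than in untreated gliospheres (standard error 0.29, 30.2-fold, limma adjusted p = 9.4e-06). Against LPS-stimulated gliospheres it was higher by 4.11 log2 units (standard error 0.29, 17.3-fold, limma adjusted p = 1.79e-05). Among all 14794 probes the first of these differences ranked 48 by its p-value and the second 122.

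Tlx2 was read by 2 probes. The probe ILMN_2451202 had signals of 142.3, 133.9 and 163.4 on the untreated arrays and 154.3, 133.5 and 110.4 on the LPS arrays, and was detected on 0 of these 6 arrays. On the in vivo arrays it gave 1972, 794.7 and 426.0 and was detected on 3 of 3. Even the dimmest in vivo array was brighter than every gliosphere array. As both gliosphere groups lay at background, only a lower bound of the fold can be given, taken per array from the lowest normalized signal among detected probes. Here and elsewhere, such a bound compares group means under this normalization and leaves out their spread. Tlx2 was at least 42.7-fold higher in vivo than in untreated gliospheres (limma adjusted p = 6.94e-06). It was at least 41.0-fold higher than in LPS-stimulated gliospheres (limma adjusted p = 6.25e-06). With the authors' normalized values this probe differed by only 3.46 and 3.36 log2 units from these groups, less than these bounds. Its normalized log2 signal in vivo was 10.18 ± 0.81 (SD, n = 3), with 11.07 on replicate 1, 9.98 on replicate 2 and 9.49 on replicate 3.

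The other Tlx2 probe, ILMN_1258230, moved the same way but close to the background. Its signals were 167.1, 160.3 and 179.2 on the untreated, 162.7, 127.7 and 108.3 on the LPS and 328.2, 130.8 and 127.9 on the in vivo arrays, and it was detected on 2 of 3 in vivo arrays only. The 328.2 of in vivo replicate 1 stood apart from the other arrays, and raw signals of the remaining in vivo arrays overlapped those of gliospheres. The bound was 2.02-fold against untreated gliospheres (limma adjusted p = 0.038) and 1.93-fold against LPS-stimulated gliospheres (limma adjusted p = 0.0175). This call was lost with the authors' normalized values (adjusted p = 0.117 and 0.076) and, against untreated gliospheres, in each fit that left out a single gliosphere array (adjusted p of 0.0512 to 0.0983), so that the Tlx2 result rests on the brighter probe.

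Isl1, a LIM homeodomain factor of sensory, sympathetic and motor neurons and of endocrine cells, was near background throughout. Its signals were 150.9, 140.8 and 155.6 on the untreated arrays, 146.8, 114.2 and 132.2 on the LPS arrays, and 181.8, 126.5 and 126.9 in vivo. Raw signals of in vivo replicates 2 and 3 thus lay below those of every untreated array. It was detected on in vivo replicates 1 and 2 only, with detection p-values of 0.013, 0.04 and 0.145 on the 3 in vivo arrays. On the normalized log2 scale the in vivo arrays, at 5.56, 4.86 and 4.33, lay above every gliosphere array, of which the highest was an LPS array at 3.89. The lower bound of the fold was 1.11 against untreated (limma adjusted p = 0.00447) and 1.07 against LPS-stimulated gliospheres (limma adjusted p = 0.00997). With the authors' normalized values the latter difference shrank to 0.32 log2 units and did not pass (adjusted p = 0.0536).

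**Figure D1:**
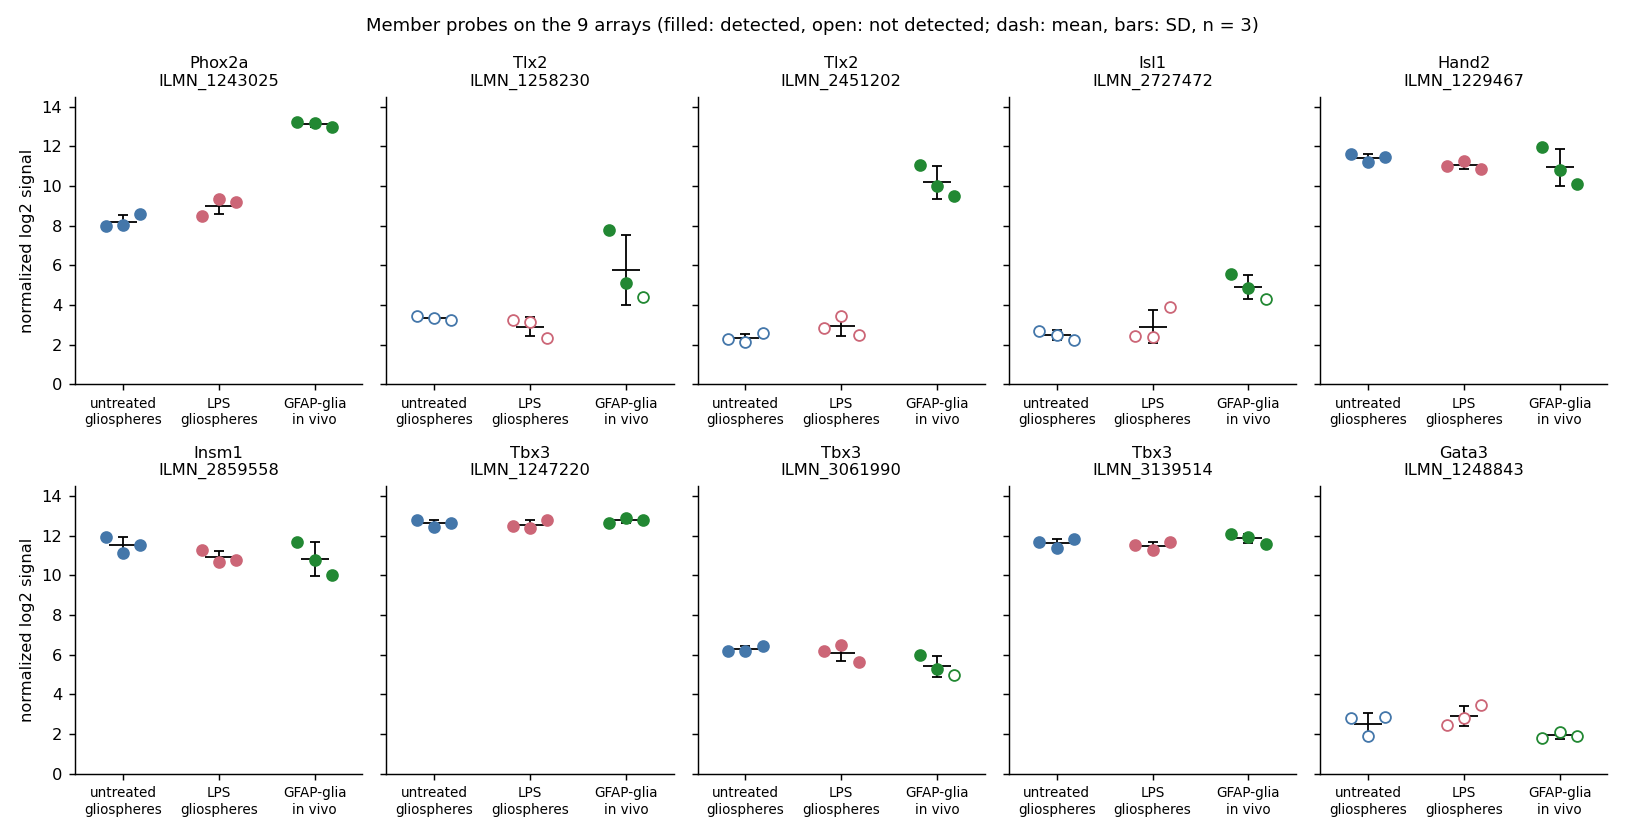
Normalized log2 signal (vertical axis) of the 10 member probes on each of the 9 arrays, by group, replicates 1 to 3 from left to right; filled points were detected, open points were not, and dashes with bars give the mean and SD of 3 arrays. Phox2a and the Tlx2 probe ILMN_2451202 stand clear of both gliosphere groups in vivo (means 13.12 and 10.18), Hand2, Insm1 and Tbx3 overlap across groups apart from the dim Tbx3 probe ILMN_3061990, and Gata3 is open on all arrays.

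Hand2, a basic helix-loop-helix factor that enteric neuron precursors need to mature, was detected on all 9 arrays. Its signals were 4537, 3430.0 and 4434 on the untreated arrays, 2844, 2897 and 1933 on the LPS arrays and 3491, 1309.9 and 584.4 on the in vivo arrays. In vivo replicate 1 was as bright as gliospheres and replicates 2 and 3 were dimmer. In normalized log2 signal, the in vivo arrays stood at 11.95, 10.78 and 10.09 and thus on both sides of the untreated mean of 11.43 ± 0.20 (SD, n = 3). The difference in vivo minus untreated was -0.49 log2 units (95% confidence interval -1.43 to 0.45, limma adjusted p = 0.421), and in vivo minus LPS-stimulated it was -0.11 (-1.05 to 0.83, limma adjusted p = 0.874).

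Insm1, a zinc finger repressor of neuronal and endocrine precursors, followed nearly the same course over the arrays. Its signals were 5605, 3259 and 4539.5 on the untreated arrays, 3321, 1944 and 1831 on the LPS arrays and 2926, 1307 and 556.0 in vivo, with every array detected. The in vivo arrays were at 11.68, 10.78 and 9.998 in normalized log2 signal and overlapped with those of both gliosphere groups. Insm1 differed by -0.70 log2 units from untreated gliospheres (95% confidence interval -1.65 to 0.24, limma adjusted p = 0.249) and by -0.08 from LPS-stimulated gliospheres (-1.02 to 0.87, limma adjusted p = 0.913).

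For Hand2 and Insm1 the outcome against untreated gliospheres turned on in vivo replicate 1. Without this array Hand2 differed in vivo minus untreated by -0.99 log2 units (limma adjusted p = 0.0213) and Insm1 by -1.13 (limma adjusted p = 0.036). Against LPS-stimulated gliospheres neither passed without this array (-0.61, adjusted p = 0.0977, and -0.51, adjusted p = 0.272). Of the in vivo arrays, this one held the highest summed level of several other marker lists. Summed over 9 smooth muscle markers, the background-corrected signal was 2169 parts per 1000000 of the array's total on in vivo replicate 1, 1067 on replicate 2 and 613.7 on replicate 3, against 187.7 to 523.9 on the gliosphere arrays. Summed over 8 fibroblast and mesenchymal markers it was 1319, 750.1 and 408.3 in vivo, and over 9 cell cycle genes 265.4, 119.5 and 61.8. Endocrine markers summed to 822.3, 534.5 and 708.9 in vivo and intestinal epithelial markers to 147.4, 39.7 and 27.4. The 16 pan-neuronal markers were also highest on replicate 1, at 7321, 6240 and 6213, but with a narrower spread. Other lists were highest on in vivo replicate 3. Enteric glial markers summed to 1706, 1741 and 2339, endothelial markers to 22.2, 23.8 and 30.9, and transmitter and receptor genes to 5517, 5047 and 6277. The part of any of these cells in the levels of Hand2 and Insm1 was not tested.

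**Figure D2:**
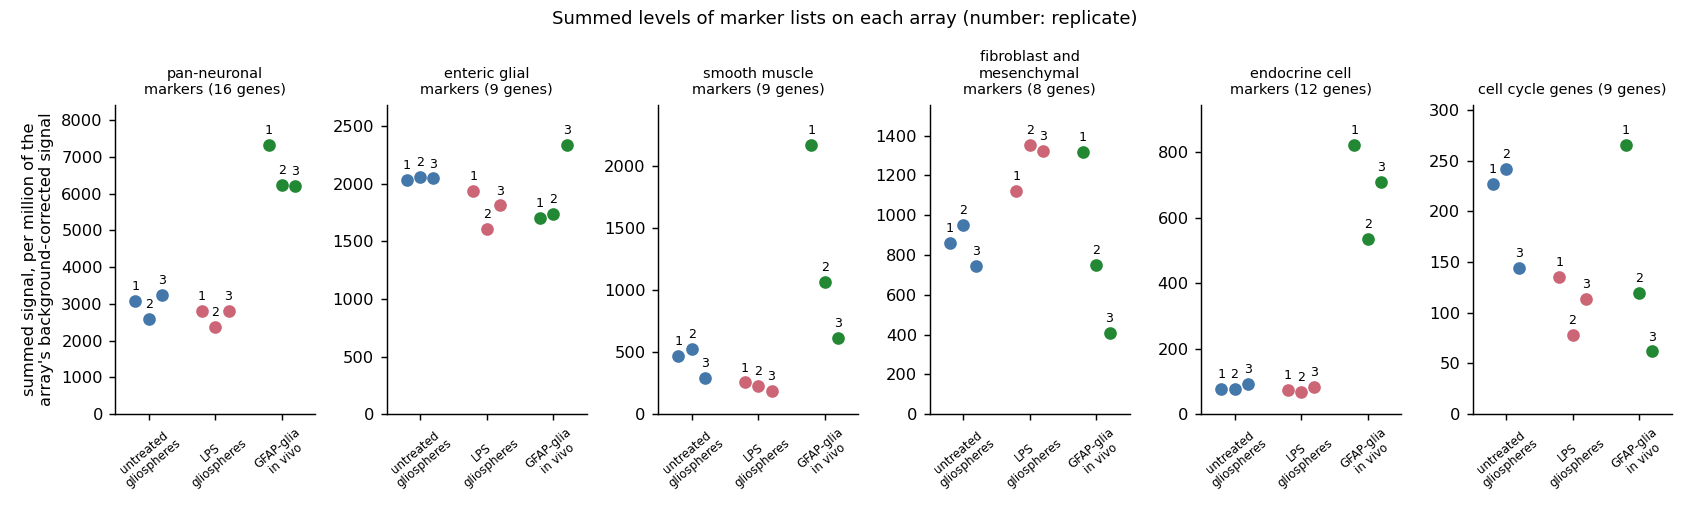
Background-corrected signal summed over the measured genes of 6 marker lists, in parts per 1000000 of each array's total (vertical axes from 0, each list on its own scale), for each of the 9 arrays; the number beside a point is the replicate. Pan-neuronal markers lie at 6213 to 7321 on the in vivo arrays against 2373 to 3240 on the gliosphere arrays, and in vivo replicate 1 is the highest of the 9 arrays for smooth muscle markers (2169) and cell cycle genes (265.4).

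Tbx3, a T-box repressor found in enteric neurons and in mesenchyme, had 2 bright probes and a dim one. The bright probe ILMN_1247220 gave signals of 10120, 7819 and 9679.8 on the untreated, 7588, 6154 and 7016 on the LPS and 5484, 5294 and 3129 on the in vivo arrays. After normalization the groups coincided, at 12.62 ± 0.18, 12.56 ± 0.22 and 12.77 ± 0.14 (SD, n = 3 each). In vivo minus untreated the difference was 0.14 log2 units (95% confidence interval -0.35 to 0.64, limma adjusted p = 0.672), so that changes beyond 0.64 in either direction lay outside the interval. Probe ILMN_3139514, with signals of 4742, 3870.4 and 5534 on the untreated, 4037, 2938 and 3240.3 on the LPS and 3772, 2774 and 1434 on the in vivo arrays, differed by 0.24 (-0.29 to 0.77, limma adjusted p = 0.49). The in vivo arrays again overlapped with both gliosphere groups on the normalized scale.

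The dim Tbx3 probe, ILMN_3061990, pointed the other way. Its signals were 267.8, 264.1 and 314.0 on the untreated, 260.2, 235.1 and 172.2 on the LPS and 195.3, 133.3 and 133.7 on the in vivo arrays, and it was not detected on in vivo replicate 3. All 3 in vivo arrays lay below all untreated arrays, and the difference of -0.88 log2 units (95% confidence interval -1.60 to -0.16) had an adjusted p of 0.0755 (limma). It passed without in vivo replicate 1 (-1.17, adjusted p = 0.0131). The Tbx3 probes thus differ in sign, and where they lie in the transcript was not analysed here.

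Gata3, a zinc finger factor of sympathetic neurons and T lymphocytes, gave signals of 152.5, 129.2 and 169.9 on the untreated arrays, 146.9, 121.6 and 125.1 on the LPS arrays and 119.2, 92.7 and 107.2 in vivo. Detection p-values ran from 0.263 to 0.93, so Gata3 was not detected on any of the 9 arrays and no fold is given.

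LPS asked a different question, whether an inflammatory stimulus given to the cultured cells moves these factors. Of the 9 tested member probes, 0 passed the test between LPS-stimulated and untreated gliospheres (limma). Of all probes 0.825% did (0.662% higher and 0.162% lower with LPS), 122 in number. With only the gliosphere arrays and the assumed preparation as a block, 207 passed, and 0 of 6 member probes did. At an unadjusted p under 0.05, 1 member probe remained, that of Phox2a. It was higher with LPS by 0.81 log2 units (95% confidence interval 0.16 to 1.45, limma adjusted p = 0.453), with 1 LPS array, at 8.51, below the highest untreated array, at 8.60. With the assumed preparation as a block its adjusted p was 0.168 (limma). Hand2 differed by -0.38 (-1.32 to 0.56) and Insm1 by -0.63 (-1.57 to 0.32), both with LPS arrays overlapping the untreated arrays. Between gliosphere arrays of the same number, Insm1 differed by -0.67, -0.48 and -0.72 and Hand2 by -0.59, 0.050 and -0.60. Phox2a differed by 0.53, 1.29 and 0.60 and the Tbx3 probe ILMN_3139514 by -0.13, -0.11 and -0.15. How many of all probes keep 1 sign over 3 such pairs was not counted, so a shared sign carries no weight here. With the assumed preparation as a block, the adjusted p-values of Insm1 and Hand2 were 0.131 and 0.421 (limma). The bright Tbx3 probes differed by -0.07 (-0.56 to 0.43) and -0.13 (-0.66 to 0.40). The intervals of Hand2 and Insm1 thus reach below -1 log2 unit, and those of the bright Tbx3 probes do not. Tlx2 and Isl1 were not detected in either gliosphere group, so no fold is given for them.

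The order of the groups was therefore in vivo, then LPS-stimulated, then untreated gliospheres for Phox2a, with the latter neighbours not separated by the test. For Tlx2 the in vivo group was above 2 groups at background that cannot be ordered. Isl1 was also higher in vivo on the normalized scale, but near background there too, with bounds of only 1.11 and 1.07. For Hand2 and Insm1 the means ran from untreated over LPS-stimulated gliospheres to in vivo, with no neighbours that differed beyond their spread, and Tbx3 had no order that its 3 probes share. The comparisons of the in vivo group with either gliosphere group share their in vivo arrays, so that their likeness is no separate evidence.

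**Figure D3:**
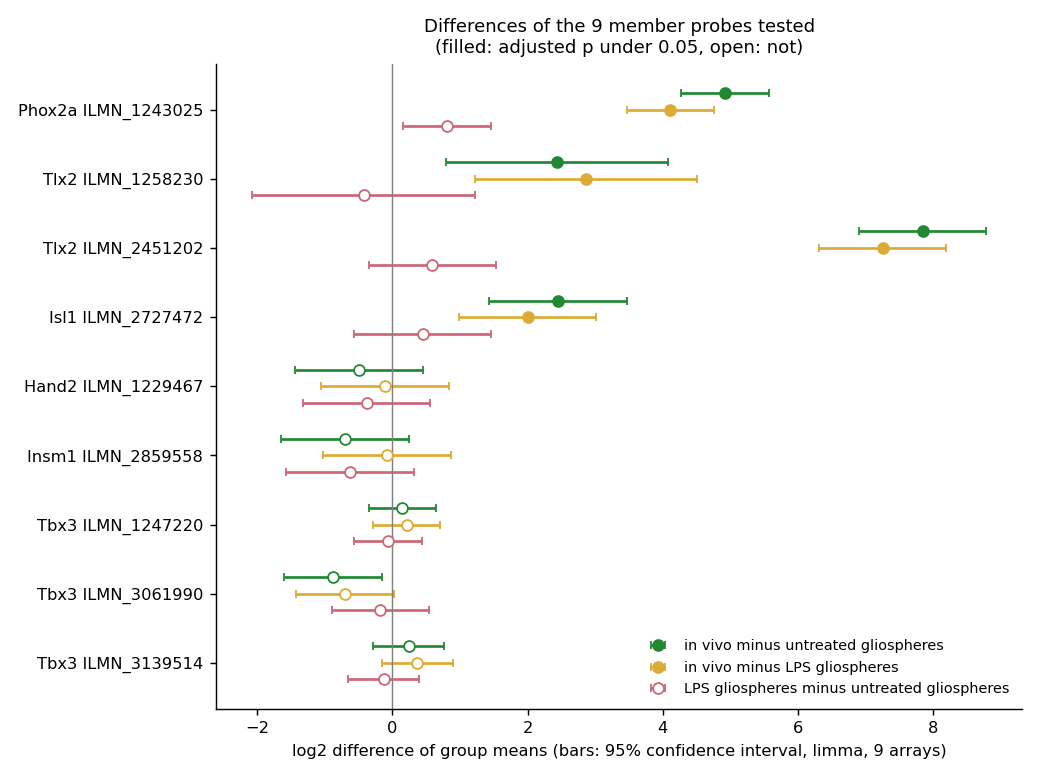
Difference of group means in log2 units (horizontal axis) for the 9 member probes tested, in each of the 3 comparisons, with 95% confidence intervals from limma's fit of 9 arrays; filled points had an adjusted p under 0.05. Phox2a, both Tlx2 probes and Isl1 lie to the right of 0 in both comparisons with the in vivo group and 0 of 9 probes are filled for LPS; the points of Tlx2 and Isl1 are fitted against groups at background and are no measure of the fold.

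Promoter sequences of mouse build GRCm38.p6, credited to RefSeq, were at hand for 5 of the 8 genes (Phox2a, Hand2, Isl1, Gata3 and Sox11). Shown are the 250 bases before the start of Phox2a, Isl1 and Hand2. Phox2a (chr7:101818063-101818312, plus strand) and Isl1 (chr13:116309689-116309938, minus strand) passed the test as higher in vivo, Isl1 near background throughout. Hand2 (chr8:57320733-57320982, plus strand) did not pass. Capitals mark each CANNTG, the E-box letters that basic helix-loop-helix proteins such as Hand2 bind, which read alike on both strands.
Phox2a: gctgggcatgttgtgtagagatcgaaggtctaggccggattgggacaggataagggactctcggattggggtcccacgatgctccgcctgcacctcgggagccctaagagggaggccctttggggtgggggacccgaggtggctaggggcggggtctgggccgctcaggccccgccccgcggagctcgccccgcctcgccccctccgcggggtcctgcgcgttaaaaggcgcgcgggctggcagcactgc
Isl1: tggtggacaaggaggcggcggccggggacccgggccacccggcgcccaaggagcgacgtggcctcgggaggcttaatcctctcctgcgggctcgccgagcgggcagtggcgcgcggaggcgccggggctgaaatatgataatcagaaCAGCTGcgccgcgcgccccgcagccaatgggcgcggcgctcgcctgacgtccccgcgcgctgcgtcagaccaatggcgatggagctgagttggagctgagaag
Hand2: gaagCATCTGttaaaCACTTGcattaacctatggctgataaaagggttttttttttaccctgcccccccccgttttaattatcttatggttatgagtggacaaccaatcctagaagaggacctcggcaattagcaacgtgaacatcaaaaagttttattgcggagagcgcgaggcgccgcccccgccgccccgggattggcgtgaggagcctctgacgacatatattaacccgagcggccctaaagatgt
The Phox2a window held 0 matches, that of Isl1 held 1 (CAGCTG) and that of Hand2 held 2 (CATCTG and CACTTG). Among all 32851 promoters of the table, 66.2% of such windows held at least 1 match. The homeodomain core TAAT, searched on both strands, had 0 matches in the Phox2a window, 2 in that of Isl1 and 5 in that of Hand2, against at least 1 in 54.9% of all windows. G and C made up 70.4, 71.2 and 49.2% of the bases of Phox2a, Isl1 and Hand2. The arrays measured no binding to these sequences.

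Relatives of the members were mostly silent. Of 9 close relatives with a probe, 3 were detected on any array, Tbx2, Sox4 and Sox12. Tbx2, a T-box repressor close to Tbx3, was higher in vivo, at 9.10 ± 0.88 against 6.80 ± 0.13 in untreated and 5.87 ± 0.48 in LPS-stimulated gliospheres (normalized log2 signal, SD, n = 3; differences of 2.31 and 3.23, standard error 0.43, limma adjusted p = 0.00466 and 0.000613). Sox4, related to Sox11, differed in vivo minus untreated by -0.47 (limma adjusted p = 0.437) and Sox12, also of that group, by 0.92 (limma adjusted p = 0.221). Tlx1, Tlx3, Hand1, Insm2, Isl2 and Gata2 were detected on 0 of 9 arrays.

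Among 27 other transcription factors of enteric neurons and neurogenesis, 20 were tested, of which 9 were higher in vivo than in untreated gliospheres, 3 were lower and 8 did not pass, beside 11.9% higher and 13.1% lower over all probes. Of the 9, 3 (Hmx3, Casz1 and Onecut2) entered the test only through the in vivo arrays and could only rise. The median difference of the 20 genes was 0.98 log2 units, or 0.66 with genes undetected in a group set to their bound, beside -0.09 and 0 over all probes. Hmx3, a homeodomain factor undetected in gliospheres, was at least 7.48-fold higher in vivo (limma adjusted p = 0.00834). Myt1l, a zinc finger factor of postmitotic neurons, was higher by 3.29 (standard error 0.27, limma adjusted p = 5.24e-05) and Ebf3, a helix-loop-helix factor of differentiating neurons, by 2.56 (standard error 0.30, limma adjusted p = 0.000371). Neurod4, a proneural factor, went against them and was at least 2.31-fold lower in vivo (limma adjusted p = 0.00186), where it was detected on 0 of 3 arrays. Also lower were Etv1 (-2.10) and Dlx1 (-1.57), named after their values were seen. With LPS, 0 of these 20 passed.

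Genes that mature autonomic neurons use were counted in the same way, beside 11.9% higher and 13.1% lower over all probes. The median difference over all probes was -0.09, or 0 with undetected genes at their bound. Of 20 tested transmitter and receptor genes 11 were higher in vivo than in untreated gliospheres, 1 was lower and 8 did not pass (median difference 1.69, or 1.35 with undetected genes at their bound). The lower gene, named after its values were seen, was Npy, a peptide of noradrenergic neurons (-4.50). Of the 11 higher genes, Dbh and Calcb entered the test only through the in vivo arrays. Dbh, which makes noradrenaline and is a known target of Phox2a, was detected on 0 of 6 gliosphere arrays. It was at least 43.6-fold higher in vivo (limma adjusted p = 4.26e-06). Of the other genes for making or carrying noradrenaline and related amines, Slc18a2 was higher by 1.30 log2 units (limma adjusted p = 0.0081). Th, Ddc and Slc6a2 did not pass (limma adjusted p = 0.0535, 0.271 and 0.594). Slc18a3, the vesicular transporter of acetylcholine, was at least 85.0-fold higher (limma adjusted p = 3.21e-05), Calcb, which encodes a calcitonin gene-related peptide, at least 52.7-fold (limma adjusted p = 7.16e-05), and Tac1, the substance P precursor, by 7.13 log2 units (standard error 0.40, limma adjusted p = 7.91e-06). Of 14 tested pan-neuronal markers 11 were higher, 0 were lower and 3 did not pass (median 1.30). The neurofilament gene Nefm, which entered the test only through the in vivo arrays, was at least 44.6-fold higher (limma adjusted p = 1.15e-05), Prph, the peripheral neuron filament, was higher by 6.33 (standard error 0.34, limma adjusted p = 7.16e-06), Dcx by 2.39 and Stmn3 by 1.91 log2 units.

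Glial and other cell markers were counted beside the same 11.9% higher and 13.1% lower over all probes. In a list of 8 genes, 1 gene is close to either share. Of 8 tested enteric glial markers 1 was higher in vivo, 3 were lower and 4 did not pass. The higher gene, Fabp7, was near background (at least 1.37-fold) and detected on 0 of 6 gliosphere arrays. Lower were Gfap, the adhesion gene Cdh19 (-2.83, limma adjusted p = 0.00557) and the progenitor factor Sox2 (difference -2.80, limma adjusted p = 0.00782), while S100b differed by -1.65 without passing (limma adjusted p = 0.118). Of 8 tested endocrine markers 4 were higher and 0 lower, namely Sst (at least 56.3-fold, detected on 0 of 6 gliosphere arrays), Sct (4.19 log2 units), Chgb (3.33) and Chga (1.77). Cck, Gip, Nts and Pyy did not pass (limma adjusted p = 0.274, 0.864, 0.66 and 0.255). Tph1 and the endocrine factors Neurog3, Pax4 and Rfx6 were detected on 0 of 9 arrays. Of 7 tested smooth muscle markers 3 were higher, namely Actg2 (6.68), Myh11 (at least 33.1-fold) and Des (at least 9.93-fold), the last 2 detected on 0 of 6 gliosphere arrays, and 0 were lower, with Acta2 at a difference of 1.00 (limma adjusted p = 0.0708). Of 8 fibroblast and mesenchymal markers 1 was higher, Dcn (1.91), and 2 were lower, Fbln1 (-2.01) and Lum (-1.39). Of 7 cell cycle genes 0 were higher and 2 lower, Pcna (-1.85) and Aurka (-1.44). Of the markers of leukocytes, endothelium, epithelium and interstitial cells of Cajal, 1, 3, 4 and 3 were tested and 1 each was higher (Cd3e, Vwf, Krt19 and Ano1), with Etv1 lower. These 4 genes were detected on 0 of 6 gliosphere arrays and so could only rise. The T lymphocyte markers Cd3g and Cd4 and the leukocyte marker Ptprc were detected on 0 of 9 arrays, as was Gata3. The part of these cell types in the member results was not tested.

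**Figure D4:**
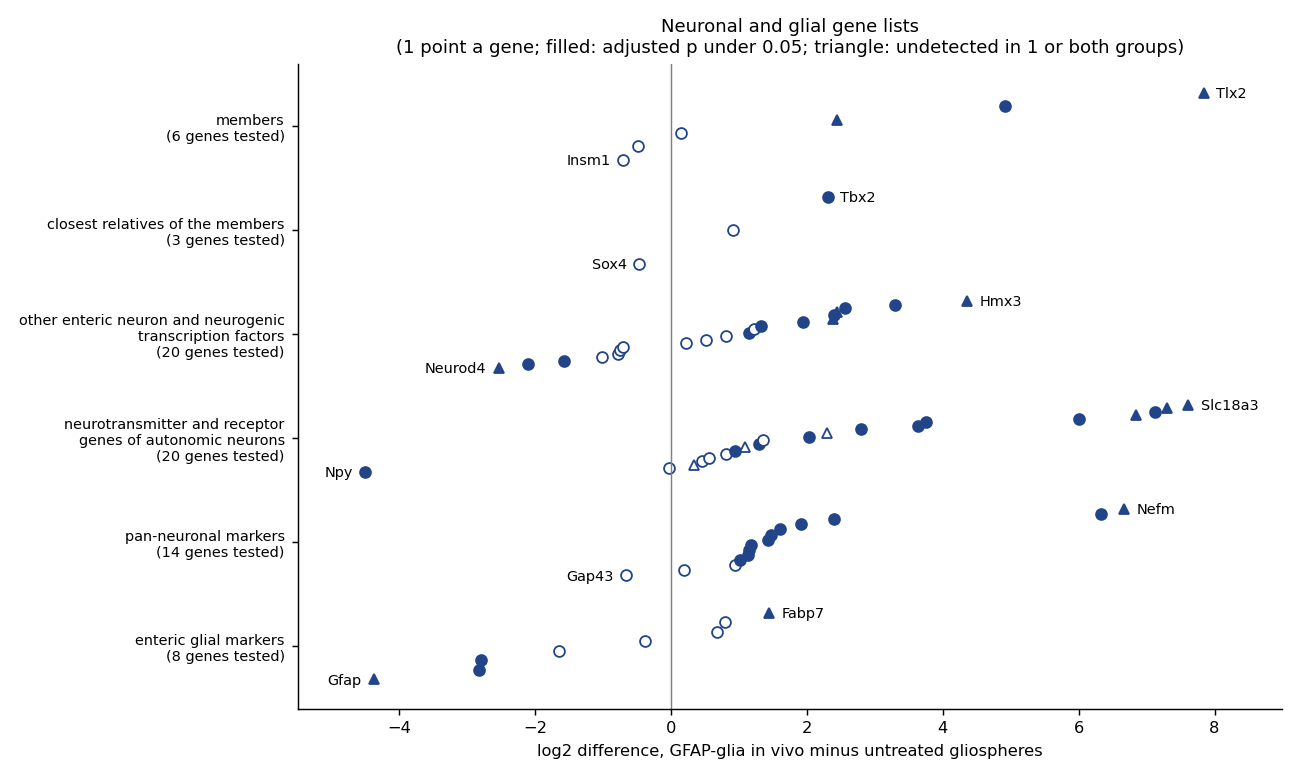
Difference in log2 units between GFAP-glia in vivo and untreated gliospheres (horizontal axis) for each tested gene of 6 lists, 1 point a gene, with the extreme genes named; filled symbols had an adjusted p under 0.05 (limma), and triangles are genes undetected in 1 or both groups, whose position depends on the background. Of the neuronal lists, 11 of 14 pan-neuronal and 11 of 20 transmitter genes lie filled to the right of 0, while 3 of 8 glial markers lie filled to the left. Over all probes 11.9% were higher and 13.1% lower.

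The genes most like each member over the 9 arrays were named by Pearson's r between normalized log2 signals, as a description only, since all 9 arrays share the difference between the groups and many genes follow it. For Tlx2 they were Gpx3 (r = 0.998), Ogdh (0.995) and Rph3a (0.994), and for Phox2a the serotonin receptor gene Htr2b (0.998), Rgs4 (0.994) and Nxph2 (0.993). For Isl1 they were Thbs3 (0.976), Thbd (0.973) and the nicotinic receptor gene Chrna2 (0.969). For Hand2 they were Banf1 (0.980), Faap24 (0.964) and Mprip (0.956), for Insm1 Cetn2 (0.976), Rad54l (0.951) and Golm1 (0.939), and for Tbx3 Dyrk3 (0.932), Mapk10 (0.921) and Haus7 (0.908).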

How the data were processed

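The members and all gene lists were chosen with earlier results of these data known. The signal intensity deposited by the authors is GenomeStudio output without background correction or normalization (version not given in the sources used here), and each signal has a detection p-value deposited by the authors. A second deposited table of normalized intensity on a linear scale has medians of 164.2 to 164.4 in all arrays, as quantile normalization gives, although VSN is the method stated. Those values were used as an alternative. In both tables the decimal point had been lost from most cells (95.8 to 98.2% of signal cells per array) and was put back where signal and normalized value of a probe fit the rising function of their array and its neighbours. Of 25697 probes, 2 stayed unsettled and were left out, and the median signal was 123.8 to 215.5 per array.

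Symbols came from the platform annotation, updated by gene identifier to GRCm38.p6 for 23960 of 23976 probes, while 1719 probes had none. No coordinates are given for probes, as no build is named for them. Background was corrected with limma's normexp with the negative controls' mean and SD estimated through the detection p-values. VSN was written for this work (affine arcsinh model, maximum likelihood, trimmed fit) and 8 of 231255 values moved by over 0.1 from a second start. limma 3.58.1 in R 4.3.3 fitted group means on 9 arrays (6 residual and 3.11 prior degrees of freedom), with an adjusted p threshold of 0.05. The scripts were tested on simulated data. The study's removal of badly performing probes was not repeated. The number of arrays limits the precision.

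Named are all member probes and relatives, up to 4 genes of each list with the largest difference in vivo minus untreated, and 3 genes most like each member. For a gene of a list the probe with the highest mean was used. Other genes named (Npy, Slc18a2, Th, Ddc, Slc6a2, Fabp7, Etv1, Dlx1, Casz1, Onecut2, Cck, Gip, Nts, Pyy and defining markers that were undetected) were chosen after their values were seen. The labels give replicate numbers only, so a shared preparation of gliosphere arrays of the same number is an assumption. What was left of these arrays after subtracting group means correlated at 0.16, 0.0864 and 0.169. In vivo and untreated arrays of the same number, for which no shared litter is stated, correlated at -0.178, -0.154 and 0.0151. Nothing in the labels ties the in vivo arrays to litters by number, so the p-values measure the spread between these samples. Alternatives were other background correction and scaling, detection filters, variance models, array weights, the replicate block and leaving out each array.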

Additional observations from a re-analysis of the deposited data

How the results depend on the processing

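Phox2a and the Tlx2 probe ILMN_2451202 passed in both comparisons with the in vivo group under all 18 alternatives, at log2 differences from untreated gliospheres of 4.40 to 5.11 and 3.46 to 8.19. The smallest Tlx2 values, 3.46 and 3.36 against the 2 gliosphere groups, came from the authors' normalized values, where Phox2a differed by 4.40 and 3.83. The Isl1 probe passed against untreated gliospheres in all 17 alternatives that tested it, by 0.40 log2 units with the authors' normalized values. Detected only in vivo and near background there, it could only rise, so these passes add no weight. The count of member probes past the test in vivo minus untreated, 4, was 2 where detection on all arrays of a group was required, which removed Isl1 and the dim Tlx2 probe from the test, and 3 to 7 when 1 array was left out, with 7 (4 higher, 3 lower) without in vivo replicate 1. In vivo minus LPS-stimulated it was 2 under that filter, 2 with the authors' normalized values and 3 to 5 when 1 array was left out. The LPS count of 0 stayed 0 under all alternatives. The dim Tlx2 probe also missed the test against untreated gliospheres with quantile normalization (1.32, adjusted p = 0.0765) and with only the 2 groups compared (adjusted p = 0.079), and the dim Tbx3 probe passed it with quantile normalization (-0.68, adjusted p = 0.0443) and array weights (-1.13, adjusted p = 0.0284).

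Some differences near 0 changed sign. In vivo minus LPS-stimulated, Hand2 was 0.076 and Insm1 0.10 with quantile normalization, and 0.081 and 0.10 with the authors' normalized values, and leaving out 1 array gave ranges of -0.61 to 0.32 for Hand2 and -0.51 to 0.33 for Insm1. In the LPS comparison, leaving out 1 array gave -0.19 to 0.021 for Tbx3 ILMN_1247220, -0.36 to 0.050 for Tbx3 ILMN_3061990 and -0.039 to 0.70 for Isl1. The causes were not tested.

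Over all probes, 3704 passed in vivo minus untreated (2371 to 4676 without 1 array), 4200 in vivo minus LPS-stimulated (2811 to 5271) and 122 for LPS (39 to 214). The lowest count in vivo minus untreated came without untreated replicate 2. The LPS count was 67, 50 and 39 without untreated replicates 1, 2 and 3, 46 and 43 without LPS replicates 2 and 3, and 214 without in vivo replicate 1. It was 423 with array weights, 244 with only the 2 groups and 207 with the replicate block on the gliosphere arrays alone. With the replicate number as a block over all 9 arrays the counts were 3305, 3740 and 90, and the block changed no call of a member probe.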
